A study of Allium sativum with 84 samples.

Results

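Among the 57561 annotated genes of garlic (Allium sativum), 300 genes were described that were silent in many accessions, expressed in many others, and placed beside another gene of that kind. A gene was called an on/off gene when at least 20 of 84 accessions had 0 FPKM and at least 20 others reached 2 FPKM, where FPKM counts the fragments assigned to a gene per kilobase of its length and per library size. This held for 2142 genes, 3.72% of all. Of these, 477 had an ID number directly before or after that of another on/off gene on the same chromosome digit of the ID, and the 300 of highest mean FPKM were taken as members. The other 1665 on/off genes, called isolated, had no such neighbour. The members were therefore chosen by the very values described here, and their levels and states are a description, with no test.

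RNA of enlarging bulbs from 84 accessions, per the labels all planted on 1 farm in Shandong, was sequenced with 1 library per accession. The labels state that 3 bulbs were taken per accession, whereas the study's methods describe pooled plants and a smaller number of sequenced accessions, and neither difference was settled from the sources used here. The labels separate the accessions by country or collection site only: 68 came from China, among them Shandong with 15, Xinjiang 9, Shanxi 6, Hebei 4, Henan 4 and 6 with no province given, and 16 came from 11 other countries, of which Canada contributed 5 and Greece 2. No treatment is given in the labels, which name the same tissue, stage and field for all, and each replicate of a site is another accession. Site names are written as in the labels (Eygpt, Amrica, Yunan, Xiangjiang).

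Garlic is sterile and is multiplied from cloves, so accessions collected in distant places can belong to the same clone or to closely related ones. In plants, accessions of 1 species commonly differ in whether a given gene is transcribed at all, and genes that lie side by side on a chromosome can share such a difference. A value of 0 in an alignment to 1 reference genome means that no read was assigned to the gene model. A gene that is missing, a gene that is not transcribed and a gene whose sequence differs too much from the reference for reads to align cannot be told apart in these data. In bulk tissue, fewer cells of a type and less RNA per cell cannot be told apart either.

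Whole reads could be recovered from the deposited values, because each FPKM is a whole number of reads divided by the gene's length and the library's total. The study sequenced paired ends and FPKM counts fragments, so a read here means 1 counted fragment, which can be a pair of reads. The totals below are therefore not on the scale of the read numbers in the study's text. Library totals ran from 11.6 M to 26.5 M reads (M for mega), with a median of 13.6 M. In each library 99.998% to 100% of this total lay in gene models, so it counts reads assigned to genes and not all reads sequenced. A count of 3 reads, the upper limit that a count of 0 allows, corresponded to at most 1.70 FPKM for any member in any library and to a median of 0.557 FPKM, so the 2 FPKM that defined the on state lay above this limit for all 300 members. An on value rested on at least 4 reads, and a member's median on value on a median of 53 reads. These limits cover counting error only. Members were short: the median length of the gene model was 369 bases, beside 381 for isolated on/off genes and 963 for genes above 0 FPKM in every accession. Adjacent gene models that are near-identical copies could share reads, and because the sources used here name neither the program that assigned reads nor its use of strand, overlapping or antisense neighbours could not be separated. The table gives no gene names, none of the 14 genes that the study's text names by ID was an on/off gene, and so no function is given to any member. The tissue label was not checked against marker genes for the same reason.

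Libraries of Canada 4 and Jiangsu 2 stood apart from the others in the share of members that were on, 75.7% and 78.7% of 300, where the remaining 82 libraries had at most 66.7%. The runs, the agreement of adjacent members and the comparison of other countries with China are also given without both. The comparison of Canada with Shandong is also given without Canada 4. All other values include both libraries.

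The 477 on/off genes with an adjacent on/off gene formed 220 runs, that is, chains of consecutive ID numbers. Most runs were pairs: 187 held 2 genes, 29 held 3 and 4 held 4, and none was longer. Skipping gene models that were at 0 in every accession did not lengthen them, with 233 runs, 507 genes and again at most 4 genes in a run. The 300 members lay in 177 of the runs, of which 94 consisted of members only. An adjacent member was found for 222 members, and the other 78 had only neighbours below the expression limit. Runs occurred on every chromosome digit, and the share of on/off genes that lay in a run was lowest on digit 7 with 18.6% and highest on digit 8 with 29.1%. Digit 8 held 48 members and digit 1 held 21. Digit 0, which held 38 members, is not one of the numbered chromosomes, and consecutive numbers there may not be neighbours on a chromosome, so agreement is given separately for it. Positions and strands were not used here.

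Mean levels over all 84 accessions ran from 2.49 to 98.2 FPKM among the members, with a median of 4.65. The lowest member had a mean of 2.489 FPKM and the highest gene left out by the limit 2.476 FPKM. At the other thresholds, 5 members were off in exactly 20 accessions and 1 was on in exactly 20, while 146 genes missed the rule by 1 accession, 60 because they were off in 19 and 86 because they were on in 19. A member was on in 20 to 63 accessions with a median of 36, and off in 20 to 59 with a median of 40. Values between 0 and 2 FPKM were few for most members, with a median of 4 accessions per member, and 56 members had none. The highest number was 44 accessions, and such accessions drop out of the comparison of states. In the accessions where a member was on, its median level lay between 3.50 and 216.5 FPKM, with a median over members of 9.58 FPKM.

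**Figure D1:**
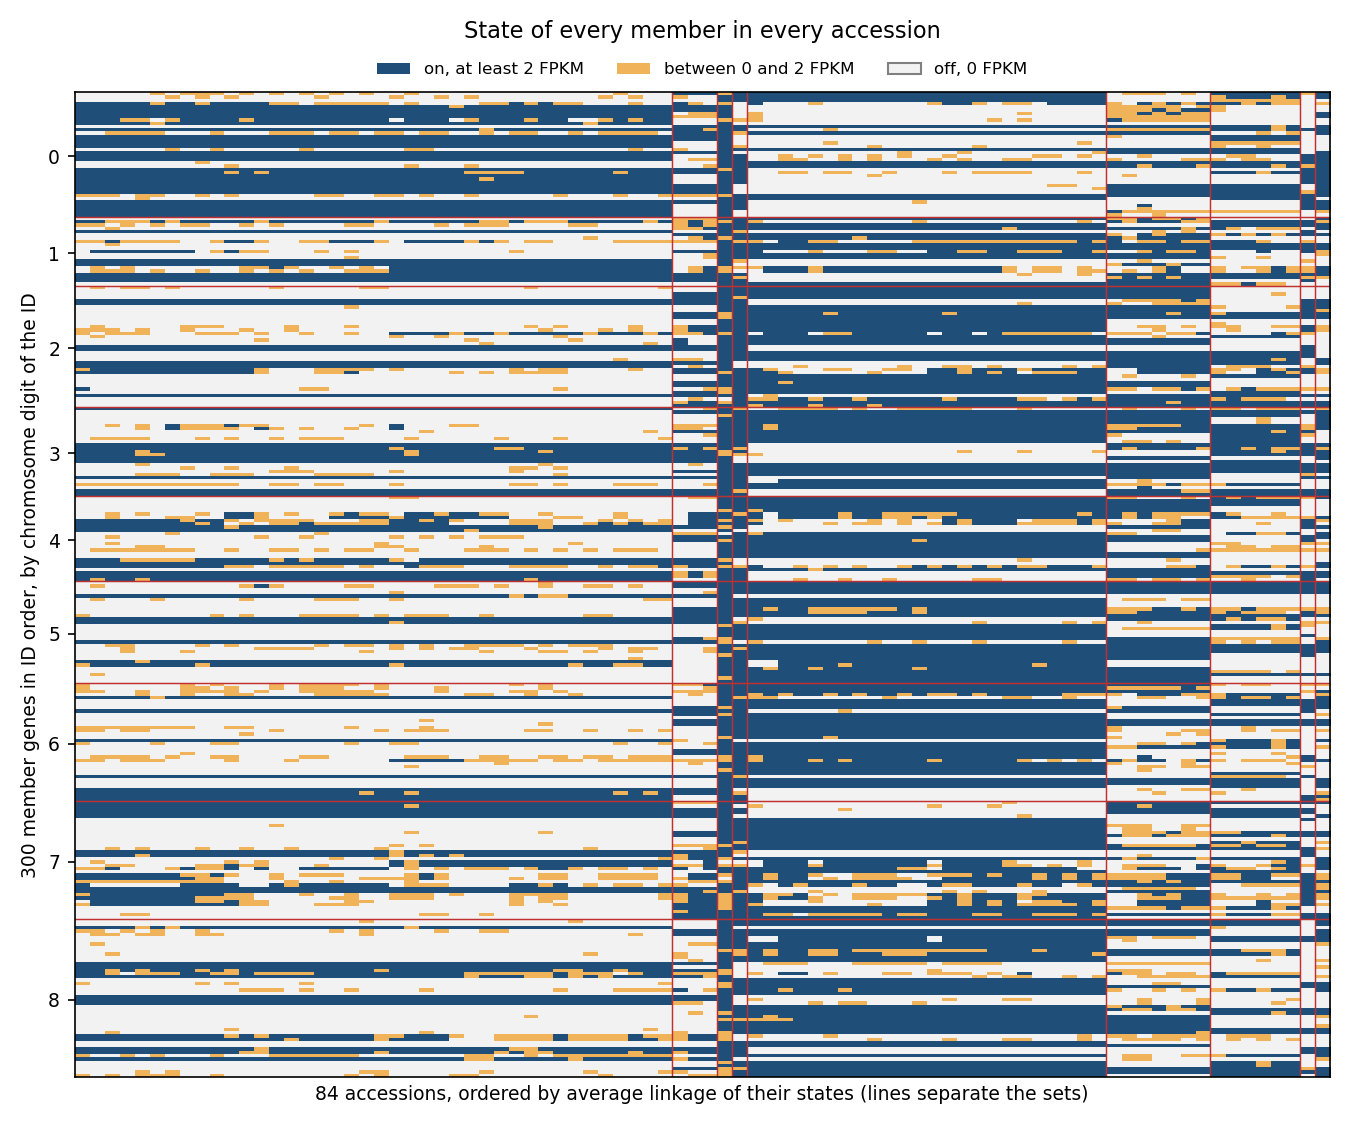
Each row is 1 of the 300 members in ID order, grouped by the chromosome digit of the ID on the vertical axis, and each column is 1 of the 84 accessions, ordered by average linkage of the states. Blue is on (at least 2 FPKM), orange lies between 0 and 2 FPKM and light grey is off (0 FPKM). Red lines separate chromosome digits and the accession sets described in the text, and the blocks of colour show sets of 40 and 24 accessions with nearly opposite states.

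To ask whether neighbours switched together, the state of both genes of a pair was compared over the accessions in which each was either on or off. Among the adjacent pairs of members the median agreement was 100%, and 91 pairs (78.4%) had the same state in at least 95% of the accessions compared. In 76 pairs no accession disagreed, 33 pairs disagreed in part and 7 were opposite. Over all adjacent pairs in the runs, members or not, 188 pairs (73.2%) agreed in at least 95% of the accessions. The agreement was lower at larger distances along the ID numbers. Pairs 2 IDs apart reached 95% in 46 cases (39.7%), pairs 3 IDs apart in 29.6% of 98, pairs 2 to 10 IDs apart in 23.1% of 805, and pairs 11 to 100 IDs apart in 14.5% of 7224. Pairs on different chromosome digits reached it in 14.1% of 2032837 cases, with a median agreement of 65.8%. Because pairs share the accessions and, in part, their genes, these shares are a description and were not tested.

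**Figure D2:**
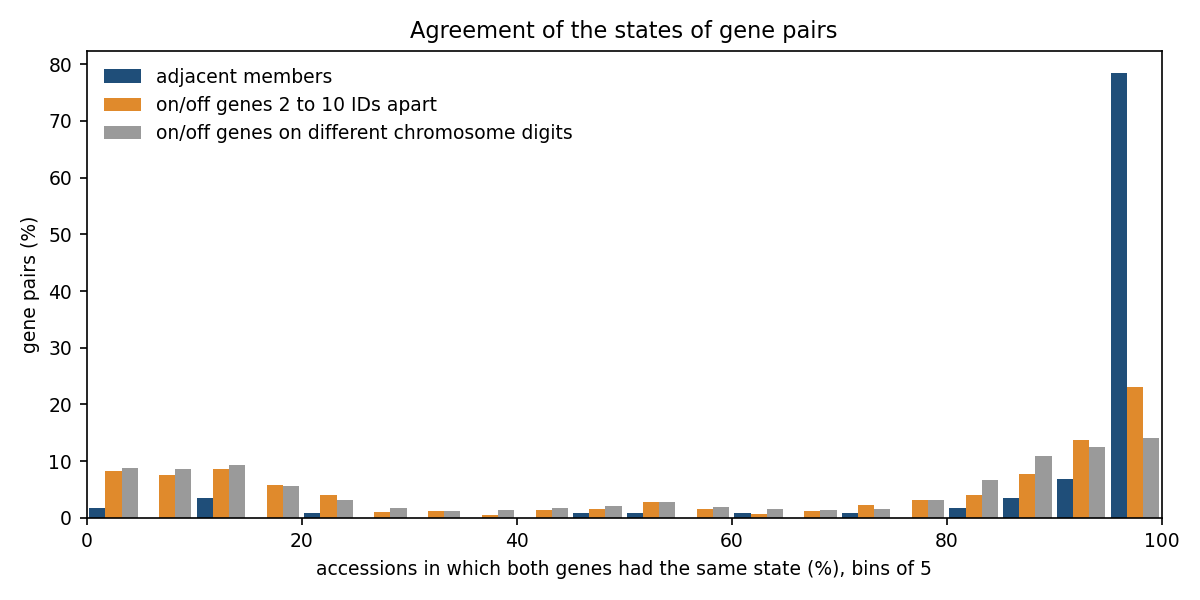
The horizontal axis gives the share of accessions in which both genes of a pair had the same state, in bins of 5%, and the vertical axis the percentage of pairs in each bin. Adjacent members (blue) are concentrated in the highest bin with 78.4%, whereas on/off genes 2 to 10 IDs apart (orange) and on different chromosome digits (grey) are spread over both ends of the axis.

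On digits 1 to 8, 80 of 100 adjacent member pairs reached 95% agreement, and on digit 0, 11 of 16. The correlation of log2(FPKM + 1) over the 84 accessions, which uses levels and not states, had a median of 0.964 for adjacent members and of 0.152 for members on different chromosome digits. Since many accessions repeated nearly the same states, the pairs were also compared over the 20 accessions outside the 2 largest accession sets, described below. This leaves repetition in place among 16 of the 20, which belonged to sets of 7, 6 and 3 with 93.9% to 100% agreement within a set. There, 70.6% of the 102 adjacent member pairs with at least 10 of these accessions to compare reached 95%, beside 14.7% of pairs 2 to 10 IDs apart and 6.18% of pairs on different chromosome digits. Leaving Canada 4 and Jiangsu 2 out of the rule and the comparison gave 457 genes in 210 runs, and 80.3% of the adjacent member pairs reached 95%.

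The pair with the highest expression was Asa5G00407 and Asa5G00408, with gene models of 297 and 339 bases. Asa5G00407 was at 0 FPKM in 43 accessions and between 8.97 and 247.99 FPKM in the other 41, with a median on level of 73.4 FPKM. Asa5G00408 was on in 41 accessions, between 34.1 and 517 FPKM with a median of 194 FPKM, at 0 in 41 and at no more than 0.472 FPKM in the other 2. All 82 accessions in which both had a state agreed, and no accession lay between the low and the high group of either gene. Among the 41 accessions with both genes on, the log2 levels had a correlation of 0.962, and the log2 ratio of both genes varied with an SD of 0.31 while Asa5G00407 itself varied with an SD of 1.13.

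Asa0G05136 and Asa0G05137, the pair of next highest expression, belonged to a run of 3 members on digit 0 with Asa0G05135. Asa0G05136 was on in 58 accessions, between 14.1 and 113 FPKM with a median of 58.5 FPKM, and off in 25. Asa0G05137 was on in 58 accessions, between 22.5 and 124 FPKM with a median of 68.7 FPKM, and off in 25. The remaining accession of each gene was below 1 FPKM (0.596 and 0.264 FPKM). The 3 genes were on in the same 58 accessions, and every accession in which neighbours had a state agreed.

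**Figure D3:**
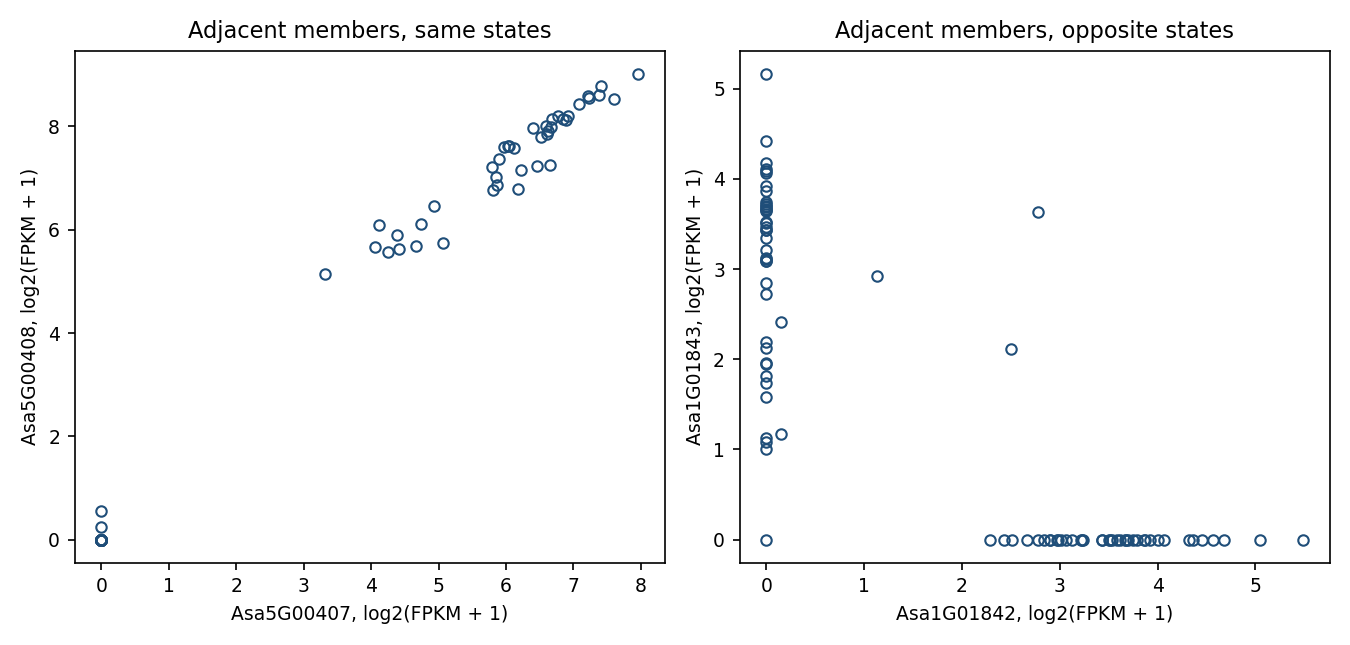
Each point is 1 of the 84 accessions, and the axes give log2(FPKM + 1) of the 2 genes of an adjacent pair. On the left, Asa5G00407 and Asa5G00408 are either both near 0 or both high, with 41 accessions on in both. On the right, Asa1G01842 and Asa1G01843 lie along the axes, with 1 gene on and the other at 0 in 74 accessions.

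Of the 4 runs with 4 genes, the 3 with the highest mean are described gene by gene. The remaining one, Asa2G04611 to Asa2G04614, had full agreement between all neighbours and is named only because it completes the count. Run Asa4G02998 to Asa4G03001 switched as a unit. All 4 genes were on in the same 26 accessions and none of them was on in any of the other 58. The 26 were the set of 24 accessions described below with Canada 4 and Jiangsu 2. This pattern was not particular to the run, since 165 of the 300 members were on in at least 90% of the set of 24 and in none of the set of 40. Median on levels were 13.7 FPKM for Asa4G02998, 6.71 for Asa4G02999 (which was below the limit for members), 11.6 for Asa4G03000 and 15.5 for Asa4G03001. In the other 58 accessions the genes stayed at or below 0.840, 0.667, 1.06 and 0.978 FPKM, respectively. Asa4G03001, the longest of them with 597 bases, had such low values above 0 in 32 accessions, and Asa4G02998 in 7.

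Run Asa6G01775 to Asa6G01778 was split in the middle. Asa6G01777 and Asa6G01778 were on in the same 44 accessions, with median on levels of 41.7 and 27.2 FPKM, and agreed in all 82 accessions compared. Asa6G01775 was on in 26 accessions, between 4.59 and 18.3 FPKM, and at exactly 0 in the other 58. Asa6G01776, below the limit for members with a median on level of 2.96 FPKM, was on in 22. In 16 accessions the first pair of genes was off while the second pair was on, and no accession showed the reverse. The agreement across this break, between Asa6G01776 and Asa6G01777, was 79.2%, beside 97.4% and 100% for the neighbours on its left and right.

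In run Asa8G04666 to Asa8G04669 the first 3 genes agreed in every accession compared, and the last one departed in part. Asa8G04666 was on in 41 accessions, between 3.33 and 16.9 FPKM with a median of 11.8 FPKM, Asa8G04667 in 37 with a median of 4.77 FPKM, and Asa8G04668 in 39 with a median of 5.83 FPKM. Asa8G04669 was on in 30 accessions with a median of 3.33 FPKM and lay between 0 and 2 FPKM in 18. It had the state of Asa8G04668 in 93.5% of 62 accessions, with 2 accessions on in the first gene only and 2 in the second only.

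**Figure D4:**
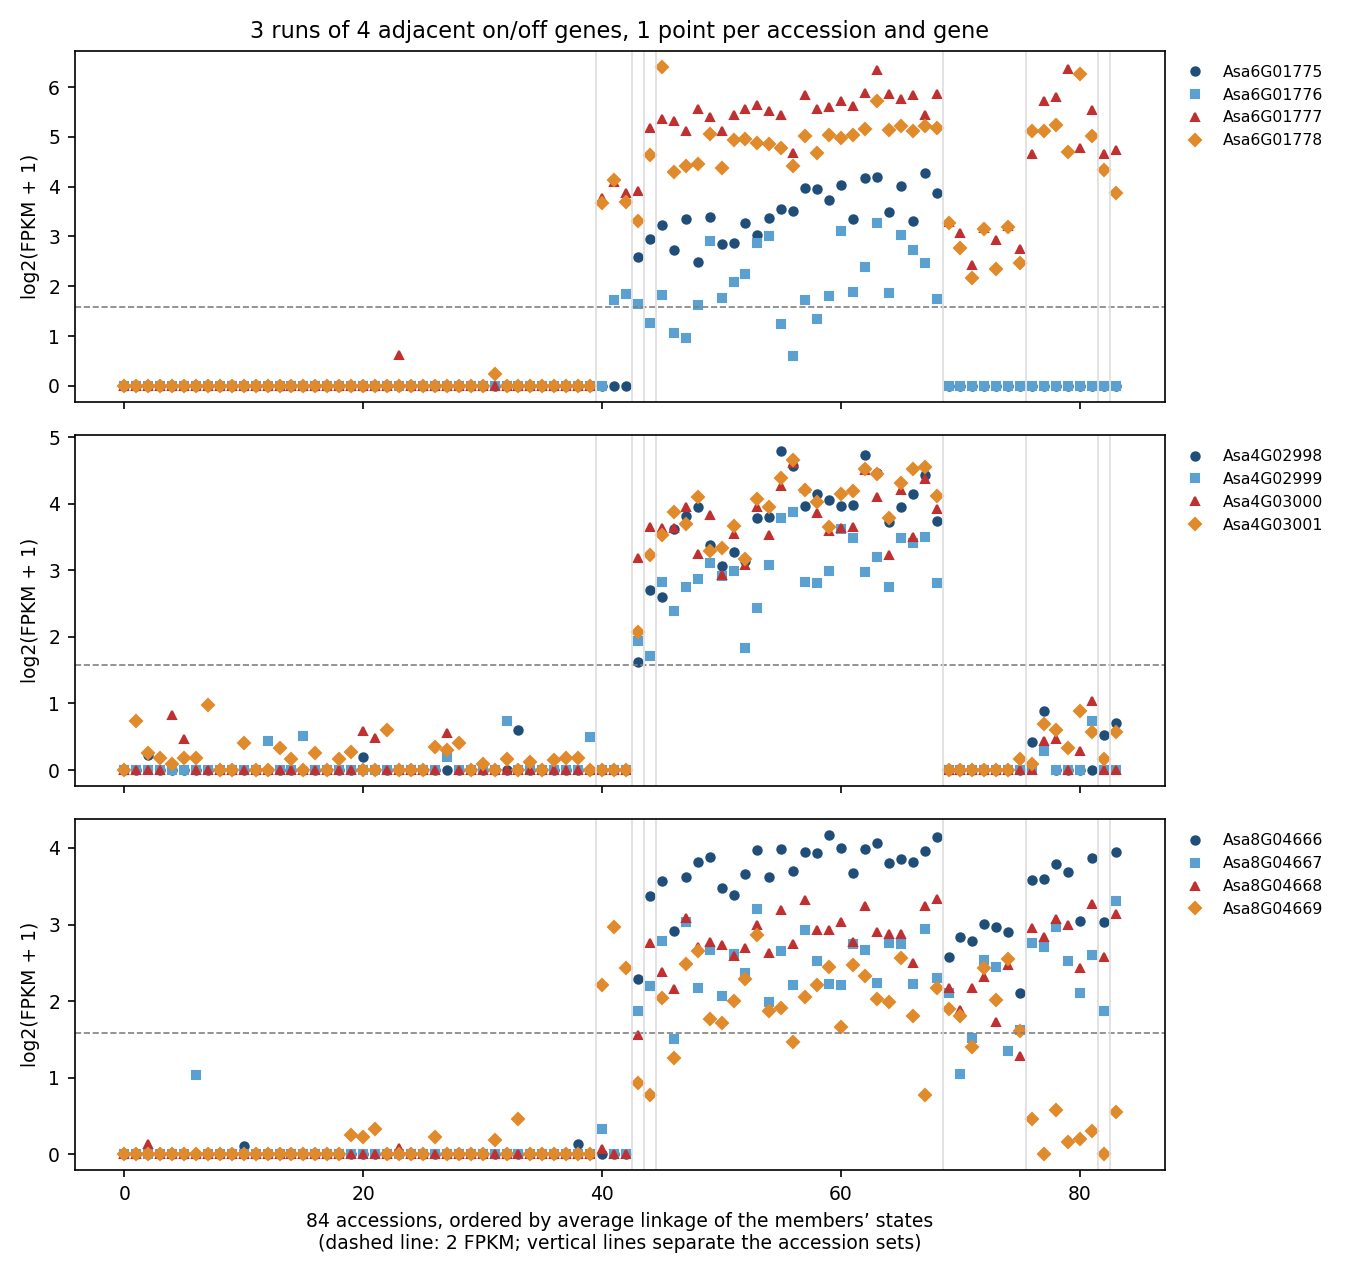
For each of 3 runs of 4 adjacent on/off genes, the vertical axis gives log2(FPKM + 1) and the horizontal axis the 84 accessions in the order of average linkage of the members' states, with 1 symbol per gene. The dashed line marks 2 FPKM, and vertical lines separate the accession sets. The genes of the middle panel are on together in 26 accessions, those of the top panel change between the second and the third gene in 16 accessions, and in the bottom panel the fourth gene departs from the first 3.

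Adjacent members that did not agree fully fell into a partial and an opposite kind. In 33 pairs, 1 to 19 accessions disagreed, with a median of 4. In 26 of these all disagreeing accessions went one way, so that the accessions with the one gene on lay within those with the other gene on, and in 7 pairs both directions occurred. Only 4 of the 33 pairs agreed in less than 80% of the accessions. Equal lengths of the gene models were found in 6 adjacent member pairs, 4 of them with full agreement and 1 with opposite states.

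In 7 adjacent member pairs, 3 of them on digit 0, the states were opposite in at least 75% of the accessions. Over these pairs 469 comparisons of states were opposite and 60 were the same. Asa1G01842 was on in 42 accessions and off in 39, and Asa1G01843 was on in 38 and off in 41. In 40 accessions only Asa1G01842 was on, between 3.88 and 43.8 FPKM with a median of 10.5 FPKM, and in 34 only Asa1G01843, between 2.32 and 34.8 FPKM with a median of 10.2 FPKM. Both genes were on in Canada 3 (5.84 and 11.4 FPKM) and Jiangsu 2 (4.67 and 3.34 FPKM), and both were off in Israel 1. Asa1G00442 and Asa1G00443 were opposite in 56 of 58 accessions: only Asa1G00442 was on in 21, between 10.9 and 20.7 FPKM, and only Asa1G00443 in 35, between 2.50 and 10.9 FPKM. Both were on in Canada 4 (6.17 and 6.41 FPKM) and Xinjiang 6 (2.30 and 5.59 FPKM). The gene models of these 2 pairs differed in length (678 and 348 bases, and 669 and 184 bases). Among on/off genes on different chromosome digits, 35.7% of pairs had the same state in 25% of accessions or fewer, so opposite states were less common between adjacent members (6.03%) than between distant on/off genes. This difference was not tested.

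Levels were also compared where both neighbours were on, by a measure that cannot be set against the agreement of states. In all but 5 of the adjacent member pairs at least 10 accessions were on in both, and the correlation of log2 levels over these accessions had a median of 0.662, with quartiles of 0.409 and 0.813, and was negative in 7 pairs. It is given as a description, since both genes of a pair were read in the same libraries and the accessions may be related. The 2 genes differed by less than 2-fold in 79 of these pairs (71.2%), by the median of their ratio. The log2 ratio of the neighbours had a median SD of 0.56 over the accessions. The log2 level of the gene that varied more in each pair had a median SD of 0.75.

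The genes directly outside the runs are genes that failed the on/off rule, since they would otherwise belong to the run, so how they compare with it is fixed in part by the rule and is given as a description only. Of 440 flanking genes, 15.7% were at 0 in every accession and 34.8% were above 0 in every accession, beside 17.6% and 35.7% of all genes. Only 69 flanks were off in at least 5 and on in at least 5 accessions and could be compared with the run, and 15 of them had the state of the adjacent run gene in at least 95% of accessions. The median agreement of the 69 was 69.2%.

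Accessions fell into few sets by the states of the members. Average linkage of the share of members in the same state, with a limit of 85% or of 95%, gave sets of 40, 24, 7, 6 and 3 accessions and 4 accessions on their own. Since the sets were made from these states, differences between them are not a finding, and no set was tested against another. The study's text places accessions in genetic groups, which the labels do not give, and whether the sets correspond to them was not tested. The agreement of 2 accessions ran from 91.7% to 100% within the set of 40, from 93.1% to 100% within the set of 24, and from 0% to 8.37% between these sets. The rule itself asks for at least 20 accessions off and at least 20 on, and so it favours genes that separate sets of this size. Linkage of the 1665 isolated on/off genes, which are not members, gave sets of 40, 25, 7, 6 and 3, with Canada 4 joining the second.

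By pattern, 165 members were on in at least 90% of the 24 accessions and in none of the 40, and 83 showed the reverse. The other 52 members showed neither. Of the first kind, 91 were at exactly 0 FPKM in all 40 accessions, and of the second kind 50 were at exactly 0 in all 24. Adjacent members mostly shared a kind: both were of the first kind in 53 pairs and both of the second in 28, while in 6 pairs 1 neighbour was of each kind. Both were of neither kind in 15 pairs. A neighbour of neither kind stood beside the first kind in 9 pairs and beside the second in 5.

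The set of 40 included 36 accessions from China and 4 from other countries, and the set of 24 included 22 and 2. The set of 7 held Xinjiang 3, Xinjiang 6, Xinjiang 8, Greece 1, Greece 2, Israel 1 and Eygpt 1. The set of 6 held Canada 5, Gansu 2, Gansu 3, Xinjiang 2, Xiangjiang 1 and Shanxi 3, and the set of 3 held Shanxi 2, Amrica 1 and Turkey 1. Canada 3, Canada 4, Ukraine 1 and Jiangsu 2 stood alone. Sites were mixed: of the 15 accessions from Shandong 10 were in the set of 40 and 5 in the set of 24, and Henan was divided into 2 and 2. Of the 60 accessions from a named site with at least 2 accessions, 9 had an accession of their own site as the closest or among those tied as closest, and 24 of the 60 had tied closest accessions, from any site. Accessions of the same site agreed in at least 90% of members in 81 pairs (42.4%), and all other pairs of accessions, which include those without a named province, in 1014 of 3295 cases (30.8%). In the deposited table the columns 8 to 23 held 5 of the 6 accessions of the fourth set and 1 of the 40, so column order and set were not independent, and the part of column order in the sets was not tested.

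The share of members that were on followed the sets, which is fixed in part because the sets were made from these same states. The share was 30.7% to 35.7% in the set of 40, 58.7% to 66.7% in the set of 24 and 39.7% to 48% in the set of 7. In accessions from China the lowest, median and highest shares were 30.7%, 35% and 78.7%, and in those from other countries 31%, 39.5% and 75.7%, so the 2 ranges overlapped almost fully. Shandong ran from 30.7% to 66.3% with a median of 34.7%, Xinjiang from 31% to 62.3% with a median of 43%, and Canada from 31% to 75.7% with a median of 36.3%. Shanxi had the narrowest range of the sites with at least 4 accessions, 31% to 39.7%. Over the 84 libraries the number of members on had a correlation of -0.17 (Pearson) and -0.24 (Spearman) with the library total, given as a description because the accessions fall into sets.

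**Figure D5:**
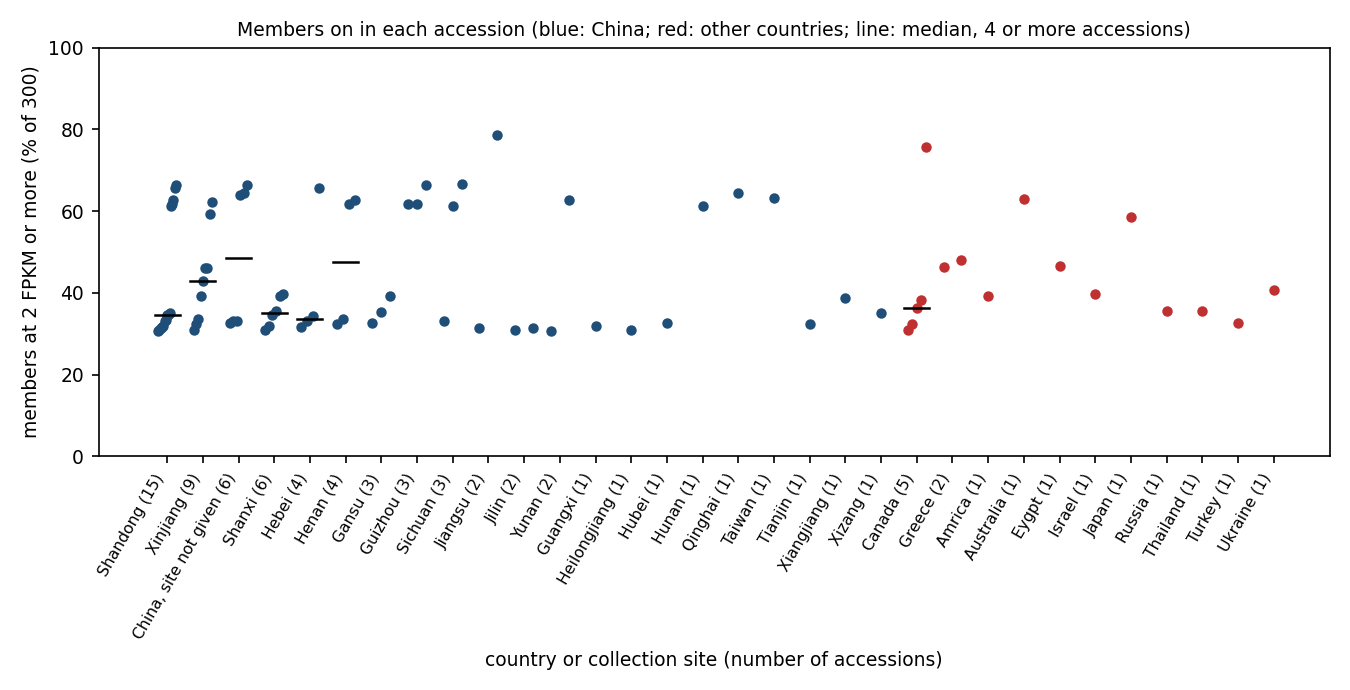
Each point is 1 accession, and the vertical axis gives the percentage of the 300 members with 2 FPKM or more in it. Sites stand on the horizontal axis with their number of accessions, China in blue and other countries in red, and lines mark the median of sites with at least 4 accessions. Shandong runs from 30.7% to 66.3% with a gap between its lower and upper accessions, and the highest points are Jiangsu 2 with 78.7% and Canada 4 with 75.7%.

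Canada 4 and Jiangsu 2 had more members on than any single set. The closest accession had the states of Canada 4 in 87.4% of members, and those of Jiangsu 2 in 82.3%. When a member was counted as on if it was on in either of 2 other accessions, the union of Canada 3 and Shandong 12 matched Canada 4 in 99.6% and the union of Shandong 3 and Taiwan 1 matched Jiangsu 2 in 99.6%, where the pair of accessions was the best found. For every other accession, such a union improved the match by at most 1.42 percentage points. What these libraries contained was not tested.

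Collection site, which the rule did not use, was then tested on the levels with limma, fitted on log2(FPKM + 1) over all genes that passed a filter of 1 FPKM in at least 4 accessions, with p-values adjusted by Benjamini-Hochberg over all genes tested. All 300 members passed this filter. The test sets the difference between the labelled groups against the spread among accessions. Between other countries (16 accessions) and China (68), 3 of 300 members passed an adjusted p of 0.05, 1 higher and 2 lower in other countries, where 3.67% of the 36007 tested genes did (1.23% higher and 2.45% lower). At an unadjusted p of 0.05, 23 members passed, beside 18.1% of all genes. The median log2 difference over the members was -0.04 and over all tested genes -0.05. In this fit the members' share was not above that of all genes, and the count shows nothing particular to the members. With limma's accession weights, which give less weight to accessions far from their group, the count was 45 of 300 members. As 12.9% of all genes were then called, the members' share was above that of all genes with weights. Leaving out Canada 4, or both Canada 4 and Jiangsu 2, gave 3 members again, where 3.45% and 3.35% of all tested genes were called.

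Asa7G07025 was higher in other countries. It ran from 0 to 22.1 FPKM in China with a median of 0.118 FPKM, and from 0 to 36.9 FPKM in other countries with a median of 4.71 FPKM. It was on in 16 of 68 and in 9 of 16 accessions, so the groups overlapped. These 9 all lay outside the sets of 40 and 24, and the part of the sets in the difference was not tested. The mean was 1.46 ± 3.15 FPKM (SD, n = 68) against 8.93 ± 11.6 FPKM (SD, n = 16), and the log2 difference 1.42 ± 0.34 (SE; limma adjusted p = 0.00913).

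Asa5G04266 and Asa5G04267, 2 adjacent members with gene models of 321 bases each, were lower in other countries. Asa5G04266 ran from 0 to 14.8 FPKM in China with a median of 5.20 FPKM, and from 0 to 7.18 FPKM in other countries with a median of 0, and it was on in 57 of 68 and in 6 of 16 accessions. Its log2 difference was -1.47 ± 0.32 (SE; limma adjusted p = 0.00358). Asa5G04267 ran from 0 to 69.7 FPKM in China with a median of 4.19 FPKM, and from 0 to 8.17 FPKM with a median of 0, and it was on in 51 and in 5 accessions. Its 69.7 FPKM was in Yunan 1 alone, and its next highest value was 9.24 FPKM in Shandong 15. Its log2 difference was -1.28 ± 0.32 (SE; limma adjusted p = 0.0109). Both genes had the same state in all 75 accessions compared, although their levels where both were on had a correlation of -0.28 over 55 accessions. These include Yunan 1, at 2.60 and 69.7 FPKM, and the correlation without it was not computed. In all 15 accessions from Shandong Asa5G04266 was on, between 2.54 and 14.8 FPKM. Both genes were at 0 in the same 20 accessions, of which 10 were Chinese. These were all accessions of the sets of 7, 6 and 3, with Canada 3, Ukraine 1, Japan 1 and Guizhou 3. Country and accession set were thus not separated for this pair, and the limma p-values treat related accessions as independent. The part of the sets in the difference was not tested. Within columns 24 to 84 of the table the 3 genes stayed past the threshold, with log2 differences of 1.40, -1.48 and -1.22 (limma adjusted p = 0.022, 0.00303 and 0.0279). Within columns 1 to 23 no gene of the table was called, 2459 of 32446 tested genes passed an unadjusted p of 0.05, and these 3 genes had log2 differences of 1.13, -1.06 and -0.93 (limma adjusted p = 0.70, 0.742 and 0.725).

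Between Canada (5 accessions) and Shandong (15), in a limma fit over the 6 sites with at least 4 accessions, 1 of 300 members was called, higher in Canada, where 1.35% of 33913 tested genes were called (0.345% higher and 1.01% lower). At an unadjusted p of 0.05, 5 members passed, beside 16.6% of all genes. The gene was Asa0G04828, at 3.77, 20.9, 66.8, 29.3 and 36.9 FPKM in Canada 1 to 5 and between 0 and 14.8 FPKM in Shandong with a median of 2.07 FPKM. It was on in 5 of 5 and in 8 of 15 accessions. Canada 1 lay within the range of Shandong and the other 4 above it. The log2 difference was 2.79 ± 0.69 (SE; limma adjusted p = 0.0329). The call did not hold without Canada 3 (limma adjusted p = 0.122), without Canada 4 (0.0512) or without Canada 5 (0.0915). No member was then called, while 1.77% of all tested genes were called without Canada 4. The median log2 difference was -0.15 over the members and -0.17 over all tested genes. After median-ratio scaling the latter was -0.03, the calls over all genes were 274 higher and 80 lower, where 342 of the 459 calls without it were lower, and 1 member was called again. Column order as a covariate also left no member called and 43 genes in all. With accession weights, 63 of 300 members and 13.9% of all genes were called, so the members' share was then above that of all genes.

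Between Xinjiang (9 accessions) and Shandong, limma called no gene of the 33913 tested (0%) and no member, and 12 members passed an unadjusted p of 0.05, beside 11% of all genes. Over the 6 sites together, the F test of limma called 15 genes (0.0442%) and no member, and 4 members passed an unadjusted p of 0.05, beside 9.08% of all genes. With accession weights, limma called 2 of 300 members and 1.76% of all genes for Xinjiang. In the F test it then called 266 of 300 members, a share above the 36.7% of all genes. The count over the 6 sites thus differed greatly with and without weights, and the reason was not tested. Shandong was shared by these comparisons. The isolated on/off genes gave similarly low counts without weights, with 14 of 1665 called for other countries, 3 for Canada, 0 for Xinjiang and 1 in the F test.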

How the data were processed

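The deposited values are FPKM per gene. The authors made them from filtered reads that HISAT2 (2.2.1.0, per the submitters' processing notes) had aligned to a garlic genome, and the counting program is not given in the sources used here. Values were used as deposited. Library totals, gene lengths and whole reads were recovered from the steps in the FPKM, and 100% of the values were within 0.05 of a whole read. Library totals were 11.6 M to 26.5 M reads assigned to genes.

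The members, lists and tests were chosen with earlier results of these data known. Genes named in the text were those of the 3 longest runs (ties by mean), the 2 highest pairs, the pairs of highest and lowest Cohen's kappa (the agreement beyond that of the on shares, 2 pairs each), and up to 2 called members in each direction per comparison. Exceptions are said in place. Opposite means the same state in at most 25% of accessions compared.

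limma 3.58.1 (R 4.3.3) was fitted without covariates, with an intensity trend and two-sided tests. Fold changes are on the log2(FPKM + 1) scale, which understates changes of low genes. No count model was run, because the unit is FPKM. Alternatives changed thresholds, scaling, pseudocount, filter, column order (columns 1 to 7, 8 to 23 and 24 to 84), weights and accessions. The study's analysis of variance compared genetic groups. The labels do not give these groups, which were not used here, so countries and sites were compared instead, and p-values treat accessions as independent whatever their relatedness. Scripts were tested on simulated data. Further tools were SciPy 1.17.1, pandas 2.3.3, NumPy 2.4.6, Matplotlib 3.10.9 and Python 3.11.15. No sequence is shown, and the columns of the table all matched a labelled accession.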

Additional observations from a re-analysis of the deposited data

Results flagged for a closer look

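In sites of 4 to 9 accessions, the gap of the most extreme accession to its nearest neighbour was set against the range of the site (Dixon's criterion at 95%) in 25 sets of values. For ordinary measurements chance marks about 1 in 20 such sets, but this rate does not apply here: the members were chosen to be off or on, so a site with 1 accession in the other state can be marked through that choice alone, and the 4 marks are descriptions. In Canada 75.7% of members were on in Canada 4, with a gap of 0.836 of the range to the other 4 accessions. In Hebei 65.7% were on in Hebei 1, with a gap of 0.922, where Hebei 1 was in the set of 24 and the other 3 accessions in the set of 40. Asa7G07025, a member called higher in other countries, was at 22.1 FPKM in Xinjiang 8 (gap 0.63 of the range) and at 3.01 FPKM in Hebei 1, where the other 3 accessions were at 0.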

How the results depend on the processing

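No paired analysis was possible because the labels give no replicate numbers that accessions of different sites share, so no replicate block could be fitted. The 477 genes in runs became 838 with the on state at 1 FPKM, 185 at 5 FPKM, 1435 with at least 10 accessions in each state and 164 with at least 30, and stayed within 1.5 times under the other 4 alternatives and without Canada replicate 4 (463). Adjacent members reaching 95% agreement were 87.8% at 5 FPKM and 90.9% with at least 30 accessions, and 69.0% of the pairs had a correlation over 0.9. The other alternatives gave 70.4% to 80.3% (78.6% without Canada replicate 4). The alternatives of leaving out Canada 4 with Jiangsu 2 and lifting the limit of 300 members (73.2%) were chosen after seeing the data. The median number of members on did not move by more than the spread among accessions. Members called in other countries were 45 with accession weights (12.9% of all tested genes) and 0 within columns 1 to 23 (0%). They were 3 to 4 when each accession was left out in turn. For Canada they were 63 with weights (13.9% of all tested genes) and 0 with a pseudocount of 0.1 (1.62%). Column order as covariate gave 0 members (0.127% of all tested genes). With 1 accession left out they were 0 to 1 (0 without Canada 3, 4 or 5). Without Canada 4, 1.77% of all tested genes were called. Weights gave 2 for Xinjiang and 266 in the F test, which had 0 to 0 with 1 accession left out, as had Xinjiang. In the fits of the 6 sites only the 13 accessions of Canada, Henan and Hebei were left out in turn, and those of Shandong, Xinjiang and Shanxi were not. The adjusted p (limma) of Asa7G07025, Asa5G04266 and Asa5G04267 reached at most 0.037, 0.0136 and 0.0321 with 1 accession left out and ran from 8.81e-05 to 0.70, 0.000322 to 0.742 and 0.00252 to 0.725 over the other alternatives, and that of Asa0G04828 from 0.0155 to 0.0919. The causes of these moves were not tested. Depth limits only the low state: 3 reads are at most 1.70 FPKM for any member and library, with a median of 0.557 FPKM. Where no read was counted, weak expression below the limit of that gene and library cannot be told from 0.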

Other observations

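Of the 38 members on digit 0, 25 (65.8%) were on in at least 90% of the set of 40 accessions and in none of the set of 24, and 10 (26.3%) showed the reverse. On digits 1 to 8 the order was the other way round, with 58 of 262 members (22.1%) and 155 (59.2%), respectively. Isolated on/off genes did not show this contrast: 15.1% and 37.2% of 218 genes on digit 0 were of these kinds, beside 15.8% and 42.2% of 1447 genes on digits 1 to 8. Genes of a run share their states, so the members of digit 0 are not independent observations, and the contrast was seen in the data and not tested.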
